A study of Mus musculus with 2 samples.

Results

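The molecular chaperones of the heat shock protein families and their J-domain partners were examined in gut epithelial cell preparations of Lrrc19 KO and WT mice. The set held every gene with an array probe set of its own whose symbol begins with Hspa, Hspb, Hspd, Hspe or Hsph and a number, with Hsp90, or with Dnaja, Dnajb or Dnajc. These were 70 genes on 169 probe sets, of 18193 genes on 34945 single-gene probe sets. By name, 14 belonged to the HSP70 group (HSP110 proteins included), 2 to the HSP90 group, 8 to the small HSP group, 2 to the chaperonin group, and 44 to the J-domain group. Hsp90ab1, the other cytosolic HSP90, is not analysed here.

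The Lrrc19 KO sample was 1 pool of RNA from 5 KO mice, and the WT sample was 1 pool from 5 WT mice. Both pools held 2 males and 3 females, 6 weeks old, on a C57BL/6 background, kept in the same SPF housing. In both, intestines were shaken at least 4 times in PBS with 30 mM EDTA, and CD4 and CD8 cells, B cells, DCs, and macrophages were then removed by magnetic sorting. Lrrc19 encodes a leucine-rich repeat receptor of gut epithelium. Each pool was hybridized to 1 Affymetrix mouse array. There was therefore no replicate check and no test, and precision is limited by having a single array per pool.

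Heat shock proteins bind unfolded or newly made proteins. HSP70 proteins do so in cycles of ATP hydrolysis, which J-domain proteins start and nucleotide exchange factors such as the HSP110 proteins end. HSP90 takes over part of the clients of HSP70, small HSPs hold unfolded proteins without ATP, and the chaperonin of mitochondria encloses them in a chamber. Some members are made at all times, whereas others are induced by heat, oxidants, or mechanical stress through heat shock factor 1, which binds inverted repeats of a short unit in their promoters. In the gut, inducible HSP70 and Hspb1 are known as cytoprotective proteins of the epithelium, and small HSPs are also abundant in muscle.

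The promoters of the 4 members with the largest positive differences and of the chaperonin gene Hspd1 are given because all 5 hold the paired unit. The sequences are from RefSeq (GRCm38.p6) and run 5′ to 3′ from 250 bases before to 50 after the annotated start of transcription. Capitals mark every inverted pair, GAANNTTC or TTCNNGAA. Each pattern, though not always the letters at its N positions, reads the same on both strands, and neighbouring pairs may share a unit.
Hspa1b, chr17:34959189-34959488, minus strand: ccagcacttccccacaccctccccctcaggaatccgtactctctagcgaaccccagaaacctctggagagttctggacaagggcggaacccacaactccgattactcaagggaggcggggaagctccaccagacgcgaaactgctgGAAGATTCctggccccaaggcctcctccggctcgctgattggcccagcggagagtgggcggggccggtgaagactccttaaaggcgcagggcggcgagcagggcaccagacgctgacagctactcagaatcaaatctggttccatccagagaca
Hspa1a, chr17:34972107-34972406, minus strand: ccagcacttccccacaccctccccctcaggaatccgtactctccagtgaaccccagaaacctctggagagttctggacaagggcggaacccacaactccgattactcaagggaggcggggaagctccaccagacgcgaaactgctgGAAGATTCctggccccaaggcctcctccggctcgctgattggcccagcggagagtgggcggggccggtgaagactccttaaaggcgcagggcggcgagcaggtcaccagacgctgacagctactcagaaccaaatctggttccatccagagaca
Hsph1, chr5:149636266-149636565, minus strand: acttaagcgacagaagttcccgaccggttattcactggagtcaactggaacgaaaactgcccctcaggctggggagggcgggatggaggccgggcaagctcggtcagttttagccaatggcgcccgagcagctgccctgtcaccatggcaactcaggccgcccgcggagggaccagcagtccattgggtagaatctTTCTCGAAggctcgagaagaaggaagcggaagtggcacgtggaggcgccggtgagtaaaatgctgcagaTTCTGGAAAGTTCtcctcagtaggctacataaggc
Hspb1, chr5:135887669-135887968, plus strand: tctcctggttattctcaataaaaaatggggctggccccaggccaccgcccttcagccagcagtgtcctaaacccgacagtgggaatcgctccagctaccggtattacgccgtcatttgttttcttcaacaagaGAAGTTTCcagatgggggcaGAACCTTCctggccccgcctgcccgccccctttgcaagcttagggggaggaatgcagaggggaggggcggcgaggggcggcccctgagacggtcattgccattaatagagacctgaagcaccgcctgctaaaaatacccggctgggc
Hspd1, chr1:55087883-55088182, minus strand: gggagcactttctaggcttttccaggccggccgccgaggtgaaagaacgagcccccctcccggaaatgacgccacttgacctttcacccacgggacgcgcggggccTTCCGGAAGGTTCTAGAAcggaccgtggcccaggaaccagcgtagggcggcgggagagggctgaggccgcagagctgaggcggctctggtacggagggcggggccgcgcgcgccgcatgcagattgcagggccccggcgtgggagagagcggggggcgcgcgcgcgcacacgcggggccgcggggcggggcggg

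The promoters of Hspa1b and Hspa1a, a tandem pair of inducible HSP70 genes, were identical at 296 of 300 positions (98.7%), and each held 1 pair, whose first base lay at -104 from the start site. Hspb1 held pairs with their first bases at -117 and -97. Hsph1 held 1 pair before and an overlapping run of 3 units after the start printed here. Hspd1 had 3 overlapping pairs at the start site printed here and none in the window of its other RefSeq start. Hspe1, the co-chaperonin gene that neighbours Hspd1 on the opposite strand, had the same 3 pairs, since both windows cover this stretch.

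A promoter was in the RefSeq table for 57 of the 70 members. At least 1 pair was found in 16 of these 57 genes (28.1%) and in 17.0% of all 27025 genes with a promoter. The 16 count Hspd1 and Hspe1 for 1 shared stretch, and Hspa1a and Hspa1b for nearly identical promoters. The 57 members had 74 promoter windows, and all 27025 genes had 32851, so the shares are not of independent sequences. A run of 3 units was found in 4 of 57 (7.02%) and in 0.662% of all genes. The 4 were Hsph1, Hspd1, Hspe1, and Dnajb6, and the run of Hspd1 and that of Hspe1 are the same stretch counted for both genes. Log2 differences of the 4 ran from 0.86 for Hsph1 to -0.21 for Hspe1. A pair was therefore present both in members with large differences and in members with small or negative ones. A match is a description of these letters and not a binding site.

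**Figure D1:**
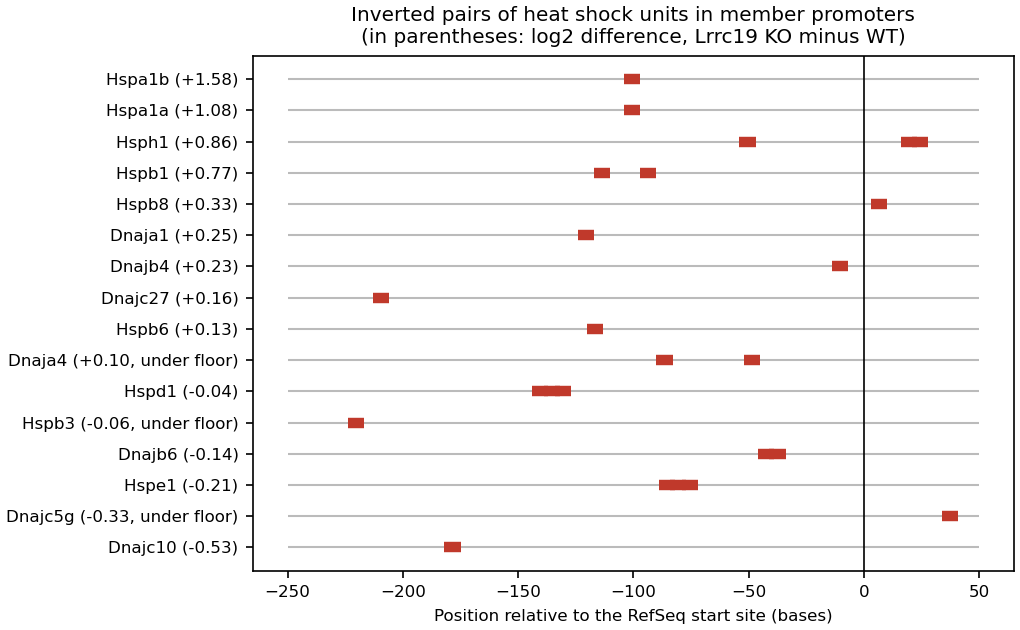
Position of each inverted pair (red block, bases from the RefSeq start site, 1 promoter window a gene) in the 16 member promoters that hold one, ordered by log2 difference, Lrrc19 KO minus WT, in parentheses. Pairs occur from Hspa1b (1.58) to Dnajc10 (-0.53), and the runs of overlapping pairs lie in Hsph1, Hspd1, Dnajb6, and Hspe1.

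Levels are intensities in arbitrary units, and differences are log2 of Lrrc19 KO minus log2 of WT for the brightest probe set of a gene. A gene was described further when at least 1 array reached the floor of 127, the median of all probe set values. Of all genes, 12518 did, with a median difference of 0.01 and a robust SD of 0.27. Lrrc19 itself was 212 in the KO pool and 905 in the WT pool on its brighter probe set and 20.9 in KO and 391 in WT on the other. No source used here says which exons were deleted, or whether the probes match them. The scaling between the arrays is unknown. All 18 probe sets of the hybridization spike-ins were higher on the KO array (median 0.50), and 9 control genes had a median of -0.10. Centring on spike-ins, on control genes, or on equal medians would shift every difference by -0.50, 0.10, or -0.08, so a difference between -0.10 and 0.50 has no settled sign. The 3′ to 5′ signal ratio of Gapdh was 1.5 in KO and 1.26 in WT, that of Actb 1.77 in KO and 1.75 in WT, and that of Tfrc 5.89 in KO and 4.14 in WT, and its part in the differences was not tested. The pools were not epithelium alone, as the smooth muscle actin Acta2 was at 14996 in KO and 12549 in WT.

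Of the 70 members, 57 reached the floor, 3 of them (Hspa12a, Dnajb8, and Dnajc27) on 1 array only. The 13 under it in both pools were Hspa1l, Hspa12b, Hspb3, Hspb9, Dnaja4, Dnajb3, Dnajb7, Dnajb13, Dnajc5b, Dnajc5g, Dnajc6, Dnajc18, and Dnajc24. At least 2-fold higher in the KO pool were 2 of 57 members, Hspa1b and Hspa1a, where 0.559% of all genes at the floor were, and none was at least 2-fold lower, where 0.407% of all genes were. With equal array medians or with the arrays centred on spike-ins, Hspa1b alone was at least 2-fold higher, and with spike-ins Dnajc10 and Hspa13 were at least 2-fold lower. At 1.5-fold, a threshold chosen after the values were seen, 4 members were higher and none was lower, where 2.78% and 3.4% of all genes were. The other 53 members differed by less than 1.5-fold. The median difference of the 57 was 0.08, with 32 above and 25 below 0, where 52.1% of all genes at the floor were above 0. This median lies within the range that has no settled sign.

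**Figure D2:**
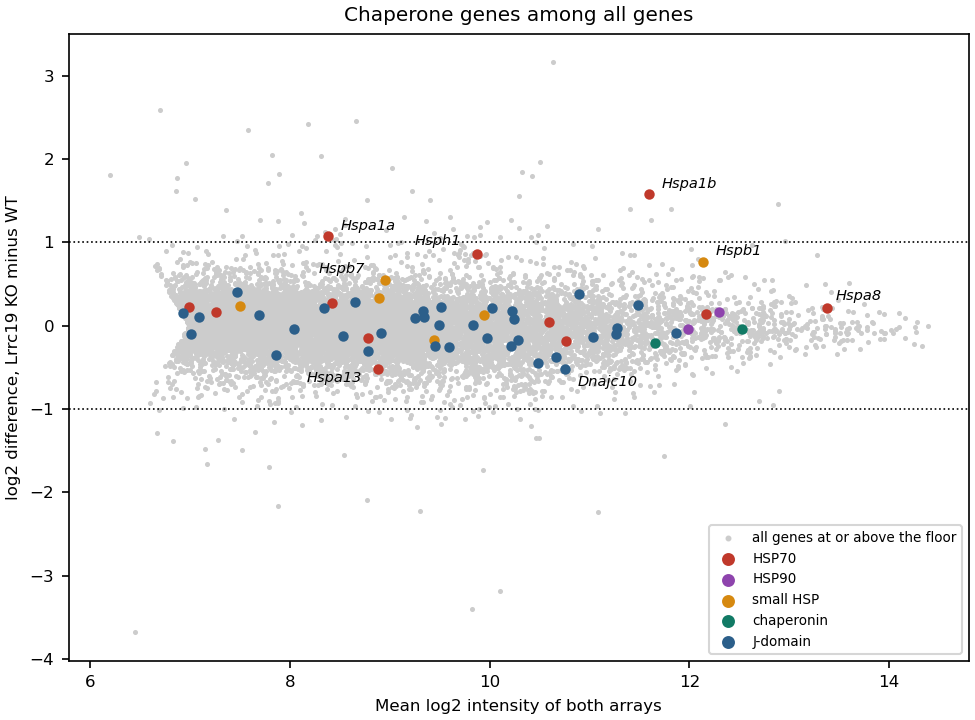
Log2 difference, Lrrc19 KO minus WT, against the mean log2 intensity of both arrays for the 12518 genes at or above the floor (grey) and the 57 chaperone genes (colours by group), with 1 pool per genotype and no error bars. Of the chaperone genes, Hspa1b (1.58) and Hspa1a (1.08) lie above the dotted 2-fold line, and no chaperone gene lies below the lower one.

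Within the HSP70 group, the largest differences were those of Hspa1b, Hspa1a, and Hsph1. Hspa1b, an inducible cytosolic HSP70, had an intensity of 5344 in the KO pool and 1792 in the WT pool, a difference of 1.58 (2.98-fold) that ranked 19 from the highest among 12518 genes. Its other probe sets gave 3591 in KO and 1169 in WT (1.62), and 1859 in KO and 633 in WT (1.55). All 3 probe sets were therefore higher in KO by nearly the same factor, over a range of brightness. Hspa1a, its tandem copy, was at 484 in KO and 229 in WT on a single probe set (1.08, 2.11-fold, rank 54). Because the transcripts of these genes are nearly identical, the probe sets may measure both, and the 0.50 between their differences cannot be assigned to one gene.

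Hsph1, the inducible HSP110 that exchanges nucleotide on HSP70, came next. Its intensity was 1269 in KO and 697 in WT (0.86, 1.82-fold, rank 110), and its second probe set was at 361 in KO and 237 in WT (0.60). Both were higher in KO. The related HSP110 exchange factors Hspa4 and Hspa4l were at 1574 in KO and 1522 in WT (0.05) and at 379 in KO and 312 in WT (0.28), and Hsph1 exceeded Hspa4 by 0.82 on the log2 scale, a contrast that no common shift of an array alters.

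The main HSP70 proteins of the cytosol, ER, and mitochondria had differences between -0.18 and 0.21. Hspa8, the constitutive cytosolic HSP70 and brightest member of the group, was at 11466 in KO and 9921 in WT (0.21), and its next brightest probe sets gave 0.21 and 0.18. Hspa5, the BiP chaperone of the ER, was at 4819.9 in KO and 4372.5 in WT (0.14). Hspa9, the HSP70 of mitochondria, was at 1636 in KO and 1853 in WT (-0.18), and its 4 probe sets at the floor were all lower in KO. Set against these within the same arrays, Hspa1b exceeded Hspa8 by 1.37 and Hspa5 by 1.44, and Hspa1a exceeded Hspa8 by 0.87.

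The lowest differences of the group were those of Hspa13, a microsomal HSP70-like ATPase, at 393 in KO and 564 in WT (-0.52), and of Hspa9. The second probe set of Hspa13 gave 416 in KO and 473 in WT (-0.19), so the size differed between its probe sets. Of the 12 HSP70 members at the floor, 9 were above and 3 below 0, with a median of 0.18 (0.17 above the median of all genes), which became -0.31 with the arrays centred on spike-ins. Without Hspa1a and Hspa1b, an alternative added after the values were seen, the median was 0.15.

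**Figure D3:**
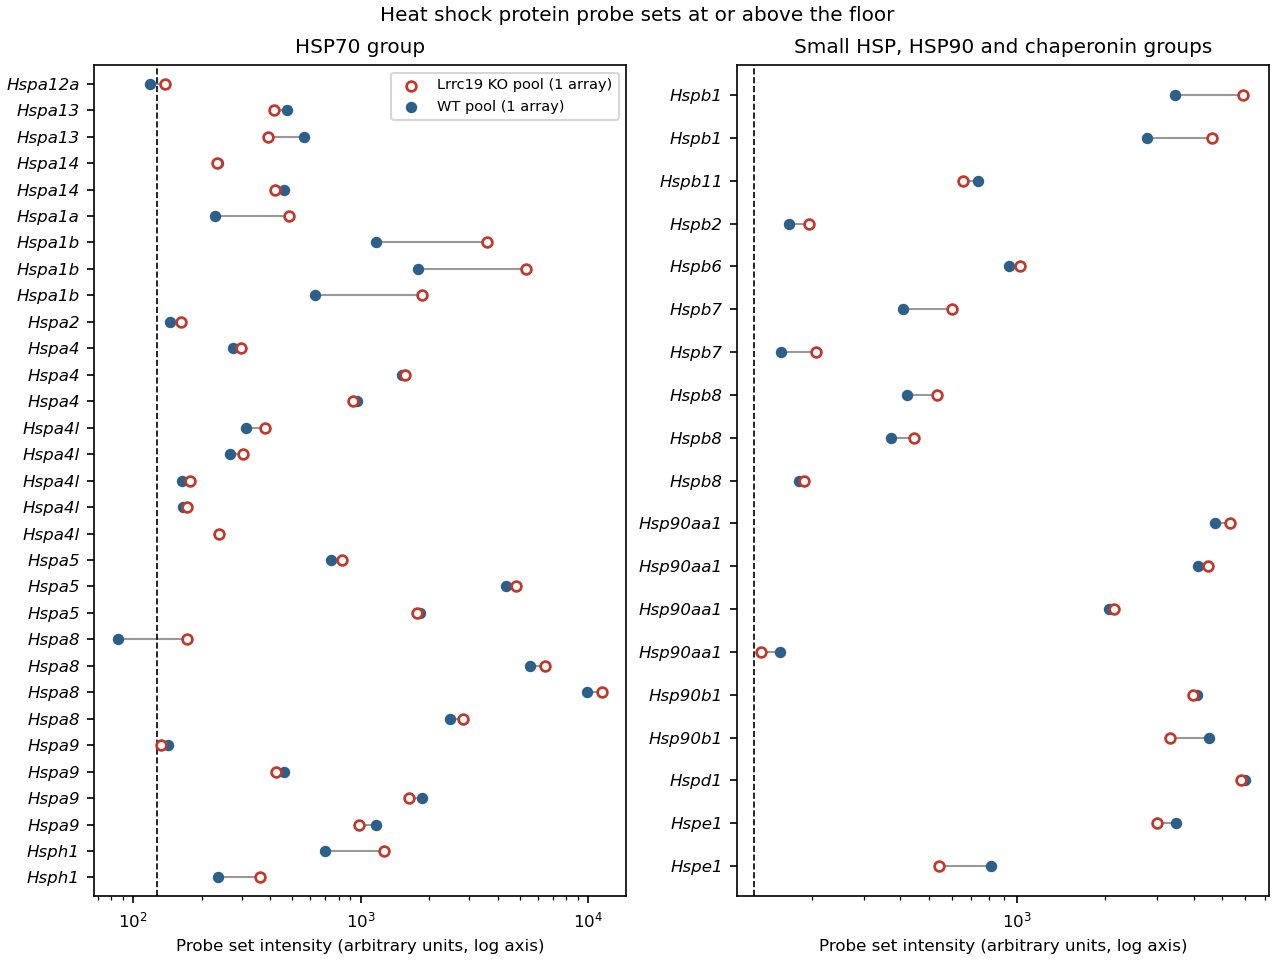
Intensity of each heat shock protein probe set at or above the floor (log axis, arbitrary units) in the Lrrc19 KO pool (open) and the WT pool (filled), 1 array each and no error bars, with the floor of 127 dashed. The widest gaps with both arrays above the floor are those of the 3 Hspa1b probe sets and of Hspa1a, and those of Hsph1 and Hspb1 are next.

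Genes of cell stress and tissue dissociation stood beside the inducible HSP70 genes. Of 22 listed immediate early and dissociation genes, 19 were at the floor, of which 18 were above and 1, Ier2, was below 0. Of all genes at the floor, 52.1% were above 0, and this list was chosen with earlier results of these data known. The median of the 19 was 0.38, less than the spike-in offset. Atf3, a stress-induced transcription factor, was the 1 past 2-fold, at 1271 in KO and 604 in WT (1.07), and 6 passed 1.5-fold, among them Egr1 at 1104 in KO and 611 in WT and Klf6 at 3288 in KO and 2028 in WT. Of all genes at the floor, 0.559% were at least 2-fold higher and 2.78% at least 1.5-fold higher. The part of cell stress during dissociation in the inducible HSP70 differences was not tested.

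The HSP90 group was close to 0. Hsp90aa1, the inducible cytosolic HSP90, was at 5334 in KO and 4749.8 in WT (0.17), and its other probe sets at the floor ran from -0.21 to 0.10. Hsp90b1, the GRP94 chaperone of the ER, was at 3992 in KO and 4109 in WT (-0.04), whereas its second probe set was at 3322 in KO and 4515 in WT (-0.44). The group median of 0.06 became -0.02 with equal array medians, -0.11 with all probe sets averaged, and -0.43 with spike-ins, so it has no settled sign. Hspa1b exceeded Hsp90aa1 by 1.41.

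Among the small HSPs, Hspb1 differed most. Hspb1, the inducible small HSP of epithelium and muscle, was at 5876 in KO and 3449 in WT (0.77, 1.70-fold, rank 152), and its second probe set was at 4630.2 in KO and 2779 in WT (0.74). Both probe sets were higher in KO by a similar factor. Hspb7, a small HSP known mainly from heart and muscle, was at 600.1 in KO and 409 in WT (0.55), and its second probe set gave 0.39. Hspb6, a small HSP of smooth muscle and the second brightest of the group, was at 1028 in KO and 939 in WT (0.13), so Hspb1 exceeded it by 0.64.

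The remaining members of the group had smaller differences. Hspb8, which works with the co-chaperone Bag3, was at 533 in KO and 423 in WT (0.33), and Hspb2, a muscle small HSP, was at 196 in KO and 167 in WT (0.24). Hspb11, a subunit of the transport complex of cilia rather than a classical chaperone, was at 656 in KO and 737 in WT (-0.17) and was the 1 of 6 below 0. The group median was 0.28 (0.27 above the median of all genes), which became -0.21 with spike-ins. Without Hspb1, an alternative added after the values were seen, it was 0.24.

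Smooth muscle markers stood beside the small HSPs. All 12 of 12 markers were at the floor and above 0, where 52.1% of all genes at the floor were above 0. The markers had a median of 0.44, less than the spike-in offset, and a range from 0.26 for Acta2 to 0.85 for Synm. Their summed intensity was 93611 in KO and 69966 in WT, and the myosin Myh11 was at 8349 in KO and 5685 in WT. In such pooled samples, more cells of a type and more RNA per cell cannot be told apart. The enterocyte markers Vil1 (5762 in KO and 5569 in WT) and Fabp2 (11165 in KO and 9536 in WT) had differences of 0.05 and 0.23, and the 7 enterocyte markers ran from -0.17 for Lct to 0.97 for Slc26a3 (8844 in KO and 4525 in WT), with a median of 0.09. Of 6 skeletal muscle markers, Acta1 and Ckm reached the floor, and the defining markers Myh4, Myh1, Tnnt3, and Actn3 were under it. The part of muscle tissue in the small HSP differences was not tested.

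Both subunits of the mitochondrial chaperonin were close to each other. Hspd1, the HSP60 ring subunit, was at 5819 in KO and 5971 in WT (-0.04), and Hspe1, its HSP10 lid, was at 3002 in KO and 3476 in WT (-0.21). The second probe set of Hspe1 was at 543 in KO and 816 in WT (-0.59). All 3 probe sets were lower in KO, and the group median of -0.12 stayed below 0 in all alternatives tried, from -0.03 with control genes to -0.62 with spike-ins. This median is of only 2 genes, and Hspd1 by itself would be above 0 with the arrays centred on control genes.

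**Figure D4:**
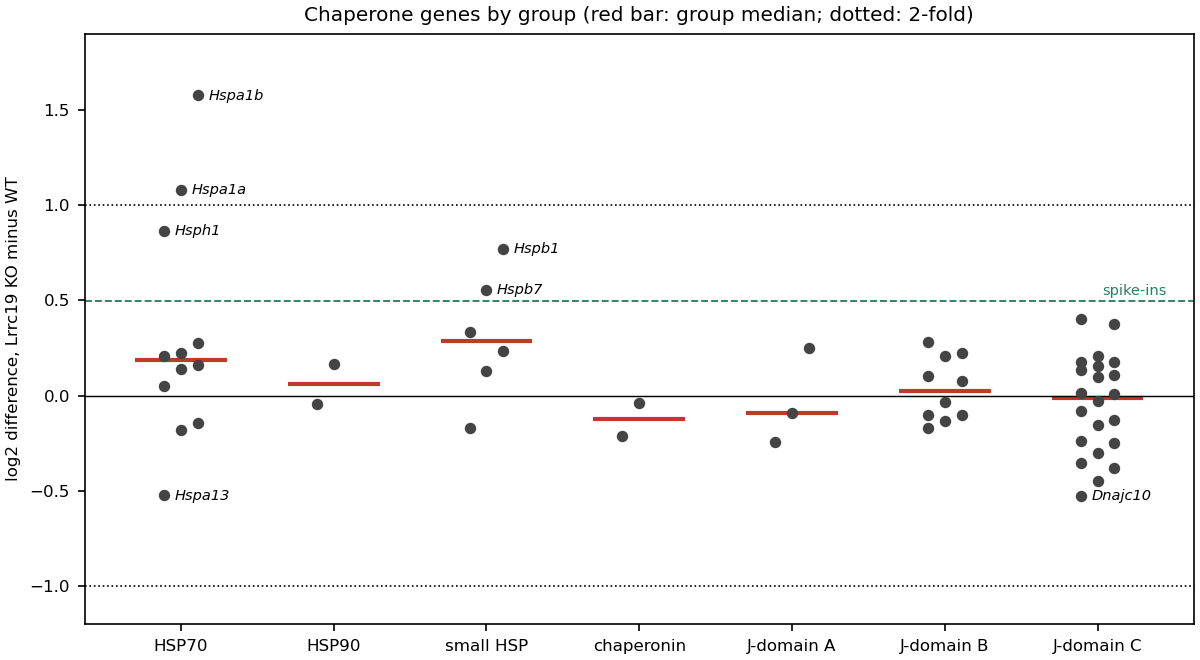
Log2 difference, Lrrc19 KO minus WT, of each chaperone gene at or above the floor by group, with the group median (red bar), the 2-fold limits (dotted) and the spike-in median of 0.50 (dashed). The 4 highest genes, Hspa1b, Hspa1a, Hsph1, and Hspb1, belong to the HSP70 and small HSP groups, and with the arrays centred on spike-ins every group median would lie below 0.

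The J-domain proteins, which deliver clients to HSP70 and start its ATP hydrolysis, were centred near 0. Of 44 genes, 35 were at the floor, with 17 above and 18 below 0 and none past 1.5-fold in either direction. Of all genes at the floor, 2.78% were at least 1.5-fold higher and 3.4% at least 1.5-fold lower. The median of the J-domain genes was -0.03, which became 0.07 with the arrays centred on control genes and -0.53 with spike-ins. Class medians were -0.09 for 3 class A genes, 0.02 for 10 class B genes, and -0.01 for 22 class C genes.

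In class A, Dnaja1 and Dnaja2 are the main cytosolic partners of Hspa8. Dnaja1 was at 3137 in KO and 2637 in WT (0.25), and all 3 of its probe sets were higher in KO, by 0.24 to 0.55. Dnaja2 was at 3621 in KO and 3862 in WT (-0.09). Dnaja3, which serves Hspa9 in mitochondria, was at 644 in KO and 762 in WT (-0.24). The 3 genes thus lay on both sides of 0, and none differed by 1.5-fold.

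In class B, Dnajb1, the stress-inducible HSP40 that acts with Hspa1a and Hspa1b, was at 1249 in KO and 1182 in WT (0.08), and its second probe set gave 0.14. The difference of this partner was thus far smaller than that of Hspa1b (1.58). The highest differences of the class were those of Dnajb5, at 445 in KO and 366 in WT (0.28), and Dnajb4, a partner of HSP70 found in muscle among other tissues, at 792 in KO and 677 in WT (0.23). The lowest were those of Dnajb9, an ER protein induced by unfolded proteins, at 1173 in KO and 1319 in WT (-0.17), and Dnajb6, which holds back protein aggregation, at 2007 in KO and 2205 in WT (-0.14). The brightest was Dnajb11, another ER co-chaperone of Hspa5, at 2369.5 in KO and 2544 in WT (-0.10).

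Class C held the widest range. The highest differences were those of Dnajc16, at 204 in KO and 154 in WT (0.40, while its second probe set was at 161.8 in KO and 162.3 in WT), and Dnajc7, a cytosolic protein that binds both HSP70 and HSP90, at 2173 in KO and 1673 in WT (0.38). The lowest were those of Dnajc10, an ER protein that reduces disulfide bonds of misfolded proteins, at 1445 in KO and 2079 in WT (-0.53), and Dnajc3, an ER co-chaperone also known as an inhibitor of a stress kinase, at 1227 in KO and 1674 in WT (-0.45). The other probe sets of Dnajc3 at the floor ran from -0.07 to 0.13, so its difference rests on 1 of 4. All 3 probe sets of Dnajc10 were lower in KO, to -0.66, and the difference of Dnajc10 minus that of Hspa5, on the same arrays, was -0.67. The brightest class C gene was Dnajc8, which is tied to the spliceosome, at 2454 in KO and 2508 in WT (-0.03).

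**Figure D5:**
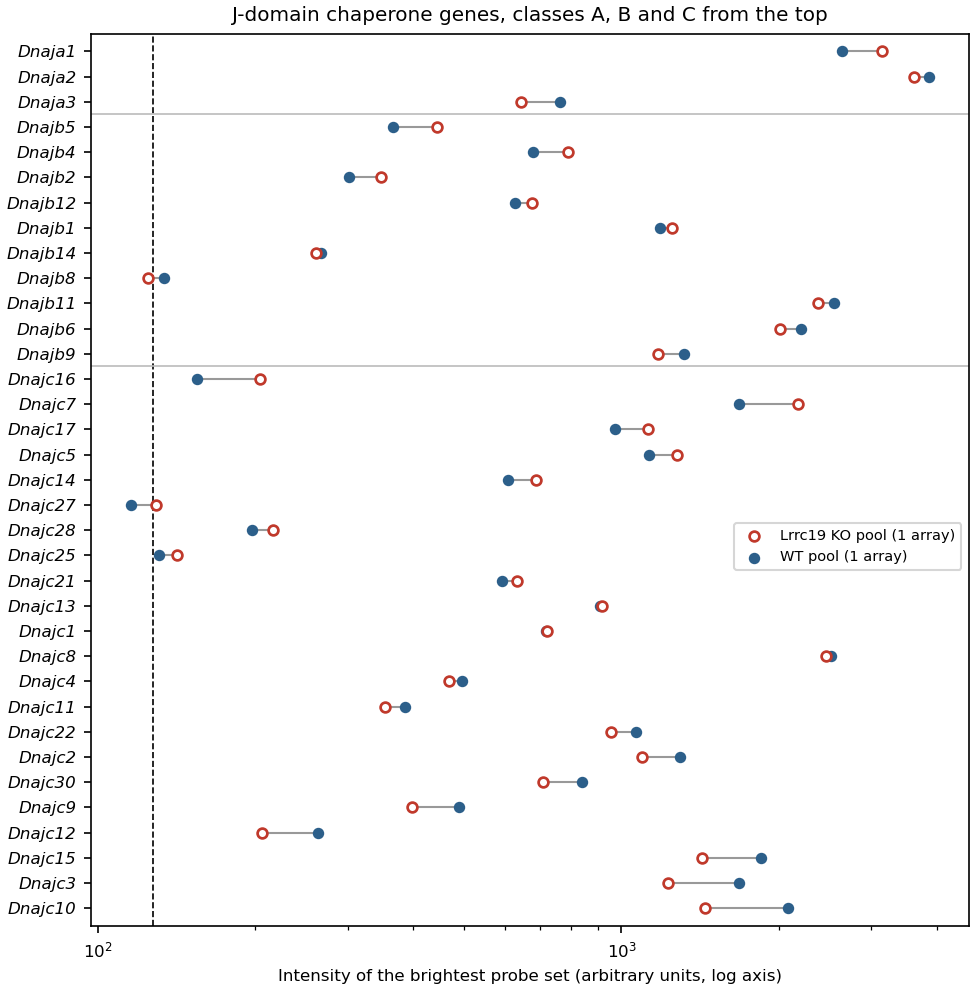
Intensity of the brightest probe set of each J-domain gene at or above the floor (log axis, arbitrary units) in the Lrrc19 KO pool (open) and the WT pool (filled), 1 array each and no error bars, ordered by difference within classes A, B, and C. No gene differs by 1.5-fold, and the widest gap is that of Dnajc10 at the bottom (1445 in KO and 2079 in WT).

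Grouped by compartment, the 9 members listed for the ER (Hspa5, Hsp90b1, Hspa13, Dnajb9, Dnajb11, Dnajc1, Dnajc3, Dnajc10, and Dnajc25) had a median of -0.10, with 3 above and 6 below 0. Those above 0 were Hspa5, the translocon-associated Dnajc1 at 721 in KO and 718 in WT (0.01), and Dnajc25 at 141 in KO and 131 in WT (0.11). The 5 members listed for mitochondria (Hspa9, Hspd1, Hspe1, Dnaja3, and Dnajc15) were all below 0, with a median of -0.21. Of these, Hspd1 (-0.04) would be above 0 with the arrays centred on control genes. The lowest of them was Dnajc15, a J-domain protein of the inner membrane of mitochondria, at 1424 in KO and 1851 in WT (-0.38). On its brightest probe set, no listed member of either compartment differed by 1.5-fold. Of all genes at the floor, 2.78% were at least 1.5-fold higher, 3.4% were at least 1.5-fold lower, and 52.1% were above 0. The 2 lists do not hold every member of their compartments, so these counts and medians hold only for the genes named.

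Factors that act with these chaperones were counted from lists of the pathway, and none of them was past 2-fold in either direction. Of all genes at the floor, 0.559% were at least 2-fold higher and 0.407% at least 2-fold lower. Of the heat shock factors and regulators, Hsf1 is not analysed here, Hsf2 and Hsf5 were under the floor, and Hsf4 and the regulator Hsbp1 (1574 in KO and 1960.2 in WT) had a median of -0.26. The 16 co-chaperones of HSP90 and HSP70 had a median of 0.01, from -0.51 for the kinase adaptor Cdc37 to 0.46 for Chordc1. Of 6 BAG family genes (median 0.03), Bag6 (0.64) passed 1.5-fold. Bag3, the stress-inducible partner of Hspb8, was at 945 in KO and 718 in WT (0.40). The folding of actin and tubulin by the cytosolic chaperonin was represented by 8 TRiC subunits, with a median of -0.05 and 4 on each side of 0.

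Prefoldin, which passes nascent actin and tubulin to TRiC, had all 6 subunits below 0, also with the arrays centred on control genes. Their median was -0.39, from -0.52 for Pfdn6 to -0.14 for Pfdn2, and none passed 1.5-fold. A list of 18 genes held proteins of the ER and mitochondria and the stress-response transcription factors Xbp1 (0.01), Ddit3 (0.44), and Atf4 (0.50). The 18 had a median of -0.10, with 7 above and 11 below 0, and these factors were among the 7. The disulfide isomerases Pdia6 (1105 in KO and 1975 in WT, -0.84) and Pdia3 (2093 in KO and 3665 in WT, -0.81) were the 2 past 1.5-fold lower. Of the chaperones whose symbols fall outside the name rule, the collagen chaperone Serpinh1 was at 1589.8 in KO and 1113 in WT (0.51), the small HSP Cryab at 870.2 in KO and 704 in WT (0.31), the ER HSP110 Hyou1 at 1287 in KO and 1306 in WT (-0.02), and the mitochondrial HSP90 Trap1 at 488 in KO and 639 in WT (-0.39).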

How the data were processed

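Gene expression was measured on 1 Affymetrix mouse array of 45101 probe sets for each genotype. The authors deposited linear intensities between 1 and 25842 (medians of 131 for Lrrc19 KO and 124 for WT). RMA, without a version, is the tool listed in the submitters' processing notes, but no source used here says how the arrays were scaled. Probe sets took their gene from the platform annotation, where 34945 had a single symbol, 932 had several and were left out, 9160 had none, and 64 were controls. All 169 probe sets of the chaperones matched the RefSeq table (GRCm38.p6) by gene ID.

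Values under 1 were set to 1 before log2 conversion, and WT was subtracted from Lrrc19 KO. For each gene, the probe set of highest mean log2 intensity over both arrays was used. It entered counts and medians when at least 1 array reached the floor, the 50th percentile of all values of probe sets other than controls (127). Calls used 2-fold. The counting was tested on simulated data with large changes and starting values above the floor, so the floor rule and dim probe sets were not tested. Other scalings, floors, and probe set rules were tried as alternatives. With 1 array per genotype no p-value was computed.

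Text names every member past 2-fold, the extremes and the brightest 2 of each group, members whose probe sets disagree, and the ER and mitochondrial sets. The members and gene lists were chosen with earlier results of these data known. Python 3.11.15, numpy 2.4.6, pandas 2.3.3, and matplotlib 3.10.9 were used. Promoters were searched for GAANNTTC and TTCNNGAA on both strands.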

Additional observations from a re-analysis of the deposited data

How the results depend on the processing

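With equal array medians, the members at least 2-fold higher in Lrrc19 KO numbered 1, Hspa1b, since Hspa1a came to just under 2-fold. With the arrays centred on spike-ins they also numbered 1, and 2 members, Dnajc10 and Hspa13, were at least 2-fold lower. At 1.5-fold, 4 members were higher. With spike-ins, the group medians were -0.31 for HSP70, -0.43 for HSP90, -0.21 for small HSPs, -0.62 for the chaperonin, and -0.53 for J-domain genes, because this setting lowers every difference by the same amount. It moved the median of all genes to -0.49, and centring on control genes moved it to 0.11. The HSP90 median also fell below 0 with equal array medians and with probe sets averaged, and the J-domain median was above 0 with control genes. Over 10 alternatives, Hspa1b ranged from 1.08 to 1.67, Hspa1a from 0.58 to 1.18, Hsph1 from 0.37 to 0.96, and Hspb1 from 0.27 to 0.87. Of 116 values recomputed, 103 moved by less than 0.27 or kept their count within 1.5-fold. With spike-ins, every recomputed value moved past these limits. Many of the 103 had little room to move. The floor settings left the differences of single genes unchanged, and shifts of -0.08 or 0.10 are smaller than 0.27. The thresholds, members, and floor of the alternatives at 1.5-fold, without Hspa1a and Hspa1b, without Hspb1, and with both arrays at the floor were chosen after seeing the data. No paired analysis was possible because each genotype had a single array and no test was made. Signal near the floor and the single array per genotype limit what can be read from dim members.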

Other observations

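The probe sets of some members disagreed in sign by more than 0.5 on the log2 scale. For Dnaja2, a cytosolic partner of HSP70, 3 of 4 probe sets were below 0, to -0.37, whereas the dimmest was at 185 in KO and 99.6 in WT (0.89), with WT under the floor. Dnajb5 ranged from -0.33 to 0.28, Dnajb6 from -0.41 to 0.17, Dnajc3 from -0.45 to 0.13, and Dnajc17 from -0.42 to 0.21. Hspa8, the constitutive HSP70, had another, dim probe set at 173 in KO and 86.2 in WT (1.01), with WT under the floor, while the 3 bright ones lay between 0.18 and 0.21. Counted by probe set, 121 of 169 were at the floor, with 64 above and 57 below 0, and 5 were past 2-fold higher, namely the 3 of Hspa1b, that of Hspa1a, and the dim one of Hspa8, whereas of 20450 single-gene probe sets at the floor 149 were past 2-fold higher and 87 past 2-fold lower.

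Markers of other cell types also differed between the pools. The 3 adipocyte markers at the floor (Adipoq, Fabp4, and Lpl) summed to 1217 in KO and 2709 in WT, with a median of -1.08. Those of the colon epithelium had a median of 0.69 over 4 genes, from -0.25 for Car1 to 1.27 for Aqp8. Slc26a3 (0.97) was in both this list and that of the enterocyte markers. The medians were 0.13 for 5 T cell markers, -0.05 for 5 plasma cell markers, and -0.15 for 5 macrophage and dendritic cell markers, and no testis marker of 4 reached the floor. The B cell markers Cd79b and Ms4a1 were near the floor in both pools, with a median of 0.43.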
